A study of Equus caballus with 6 samples.

Results

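The genes of cyclic AMP (cAMP) and protein kinase A (PKA) signalling were followed in the testes of adult stallions given a single dose of dexamethasone, a synthetic agonist of the glucocorticoid receptor, or saline. The set holds 39 genes chosen by symbol and by role: 1 stimulatory G protein, 5 adenylyl cyclases, 3 catalytic and 4 regulatory subunits of PKA, 3 transcription factors of the CREB family, 3 coactivators, 10 phosphodiesterases, 8 anchoring proteins and 2 exchange factors. On the array, 36 of the 39 had at least 1 probe annotated to that symbol alone, with 61 probes in all, out of 18278 genes with such a probe and 53423 probes printed once. The rule that picks their probes uses no measured value, though the genes were listed with earlier results of these data known. All 6 stallions were acclimated for 10 days. Of these, 3 received 0.1 mg/kg dexamethasone intravenously and 3 an equal volume of saline, and testicular parenchyma was collected 12 h later. The labels name no breed, genotype or other treatment. Each stallion's RNA was read on 1 human CodeLink array, so probes designed for human transcripts measured horse RNA.

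cAMP is made from ATP by adenylyl cyclases, which some hormone receptors drive through the stimulatory G protein. It releases the catalytic subunits of PKA from their regulatory subunits, and it opens the EPAC exchange factors. Anchoring proteins hold PKA at chosen places in the cell, phosphodiesterases break cAMP down, and PKA phosphorylates CREB, CREM and ATF1 in the nucleus. In the testis this pathway carries the luteinizing hormone signal to steroid synthesis in Leydig cells and the follicle-stimulating hormone signal in Sertoli cells. In germ cells CREM switches on genes of the spermatid, and soluble adenylyl cyclase with PKA drives sperm motility.

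Between 22690 and 25537 of the 53423 probes were above background per array, and 24590 were tested. A tested probe had to exceed background in 3 or more stallions and to have 2 or more values in each group. Values are normalised log2 intensities. Markers of the cell types of the testis were read only in part. Among marker genes with a probe, 3 of 8 Leydig, 5 of 9 Sertoli, 4 of 8 spermatogonial and 5 of 8 spermatocyte genes were above background on all 6 arrays. So were 7 of 10 spermatid, 1 of 5 peritubular myoid, 1 of 6 endothelial, 1 of 6 macrophage and 1 of 2 erythrocyte genes. Among defining markers, NR5A1 of steroidogenic cells, SOX9 of Sertoli cells and TNP1 and PRM2 of spermatids were above background on 0 arrays. Others of the same lists were above it on all 6, among them LHCGR and INSL3 (Leydig), AMH and FSHR (Sertoli) and ODF2 and TEKT2 (spermatid). In whole tissue, fewer cells of a type and less RNA per cell cannot be told apart. Of the tested markers, 3 Leydig genes lay higher and 3 lower in dexamethasone stallions, 3 and 4 Sertoli, 4 and 1 spermatogonial and 1 and 4 spermatocyte. The split was 3 and 5 for spermatid, 0 and 3 for peritubular myoid, 0 and 4 for endothelial, 3 and 0 for macrophage and 1 and 0 for erythrocyte genes. The lowest was INSL3 (Leydig), at -1.21 ± 0.23 (log2, SE, limma adjusted p = 0.999), with groups that did not overlap. Other markers had an unadjusted p under 0.05 in limma, as did 3.29% of all tested probes. Higher were CLDN11 (Sertoli, 0.48 ± 0.13, with 2 control values) and TEKT2 (spermatid, 0.34 ± 0.14). Lower were MYLK (peritubular myoid, -0.22 ± 0.08), ZPBP (spermatid, -0.21 ± 0.08) and MSH5 (spermatocyte, -0.20 ± 0.09). Their limma adjusted p was 0.999. Whether cell numbers differed was not tested. The labels name separate stallions, so n = 3 in each group, and tests were made across the whole array.

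Of the 36 genes with a probe, 29 were tested, 26 of them with a probe above background on all 6 arrays. The other 7, ADCY10, PRKAR1B, PRKAR2A, PRKAR2B, PDE4A, AKAP5 and AKAP8, had every probe above background on 0 arrays. No probe was listed for ATF1, PDE1A or RAPGEF4, which are not analysed here. The share of member probes tested was 59.0% (36 of 61), against 51.6% of the 23472 probes with a single symbol.

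**Figure D1:**
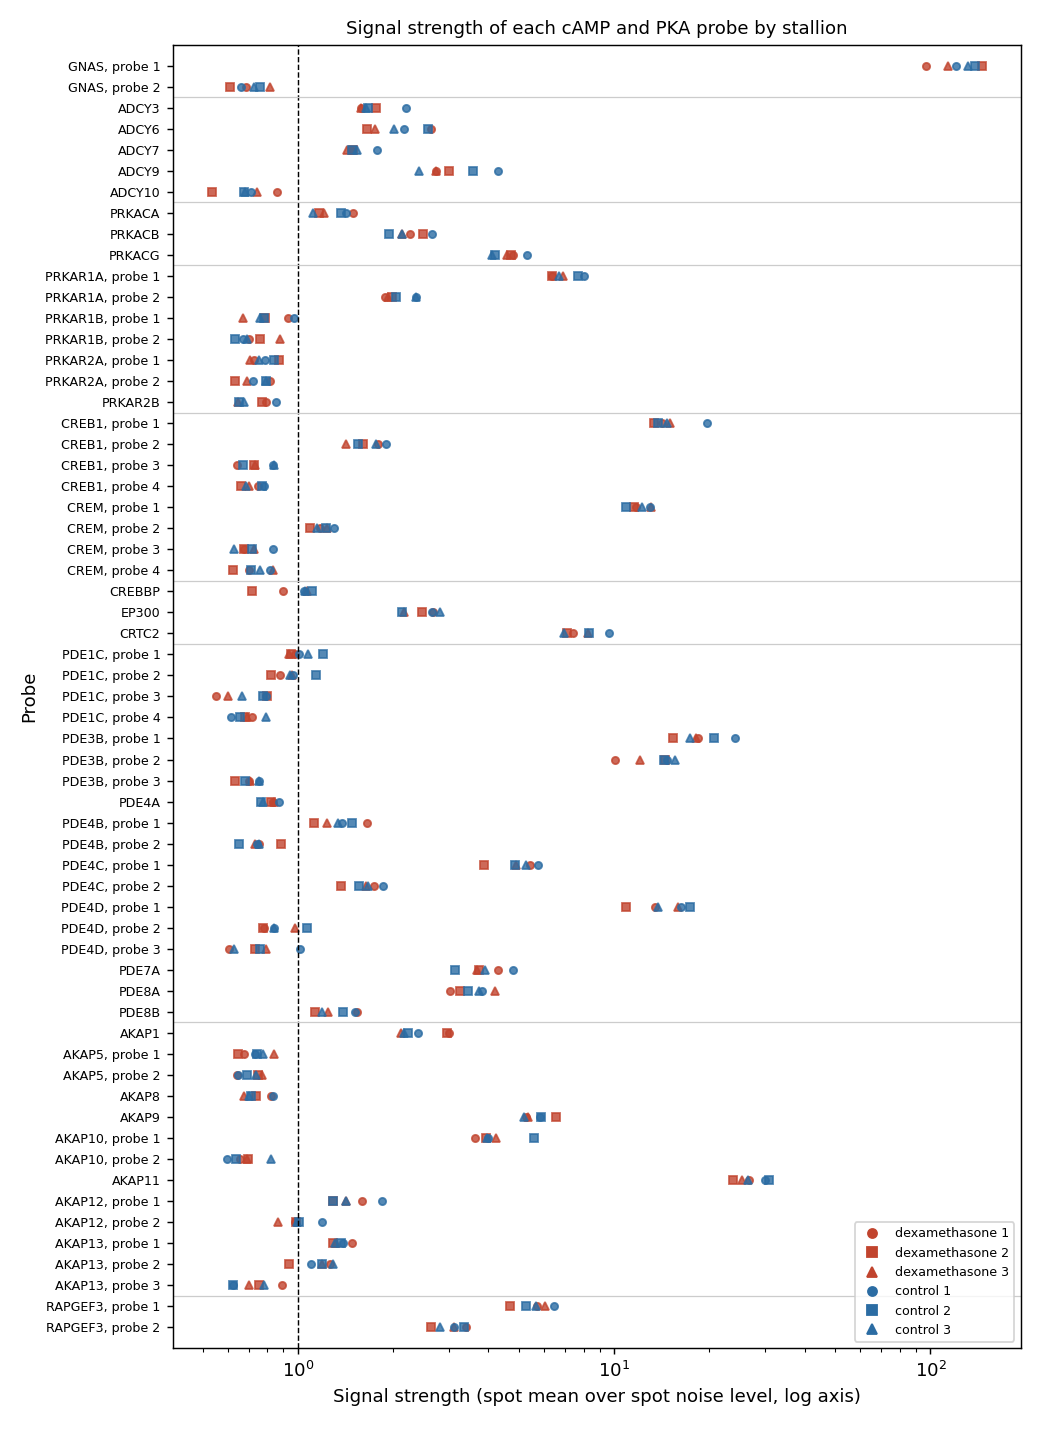
Signal strength of the 61 probes of cAMP and PKA genes (x axis, spot mean over spot noise level as deposited, log axis) on each of the 6 arrays, with 1 row per probe and rows ordered by role. Red symbols are dexamethasone and blue symbols control stallions, the shapes are replicates, and the dashed line at 1 is the level of the noise. The GNAS, CREB1, CREM and PDE3B rows show probes of 1 gene on both sides of the line.

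Which isoform dominates could not be read from these arrays, because probes of a single gene differed far more than stallions did. Signal strength, the deposited ratio of spot mean to the spot's own noise, ran from 97.0 to 146 over the 6 arrays for a GNAS probe and from 0.612 to 0.819 for the other GNAS probe. In 7 genes (GNAS, CREB1, CREM, PDE3B, PDE4B, AKAP10 and AKAP13) a probe was above background on all 6 arrays and another on 0. For PDE3B and AKAP10 such a pair was listed under the same human transcript. A probe's level was therefore not set against another's, and a probe near background does not show that its gene is silent in horse testis.

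What could be read is which members gave signal. The G protein gene GNAS and the cyclase genes ADCY3, ADCY7 and ADCY9 were above background on all 6 arrays, and ADCY6 on all 5 with a usable spot. ADCY10, the soluble cyclase that bicarbonate activates in sperm, was at a signal strength of 0.534 to 0.856, under the noise on every array. All 3 catalytic subunit probes were above background on all 6 arrays. Among regulatory subunits only PRKAR1A was, with both of its probes. PRKAR2A, the type II subunit that anchoring proteins hold in the sperm tail, was read by 2 probes listed under 1 transcript, at 0.704 to 0.871 and 0.634 to 0.815.

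PRKACG, a catalytic subunit gene known from human testis, was above background on all 6 arrays with a signal strength of 4.12 to 5.32. It was also the only member whose symbol was not found in the horse gene table used for names, which holds the other 38. Which horse transcript this probe reads was not tested.

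The comparison of dexamethasone with saline asked whether any part of the pathway differed 12 h after the glucocorticoid. None of the 36 member probes passed the test in limma, with Benjamini-Hochberg adjusted p of 0.999 or above, where 0.00407% of all tested probes passed (1 of 24590). At an unadjusted p under 0.05 there were 0 member probes higher in the dexamethasone stallions, against 1.47% of all tested probes, and 1 lower (2.78%), against 1.81%. The groups did not overlap for 2 member probes that were higher (5.56%, against 4.2% of all) and 1 that was lower (2.78%, against 5.07%). The 1 lower probe in both counts is that of PDE1C, which was tested only because all 3 control arrays were above background, so it had to differ, and under a filter of all 6 arrays it is not tested. These shares are near those of all probes. Over the 29 tested genes, each by its brightest tested probe, 15 lay higher and 14 lower, with a median log2 difference of 0.00, against -0.01 for all tested probes. That balance moved with the normalisation: with median scaling 4 of the 29 lay higher (median -0.09, all tested probes -0.08) and with the authors' scaled intensities 7 did (median -0.08, all tested probes -0.07).

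**Figure D2:**
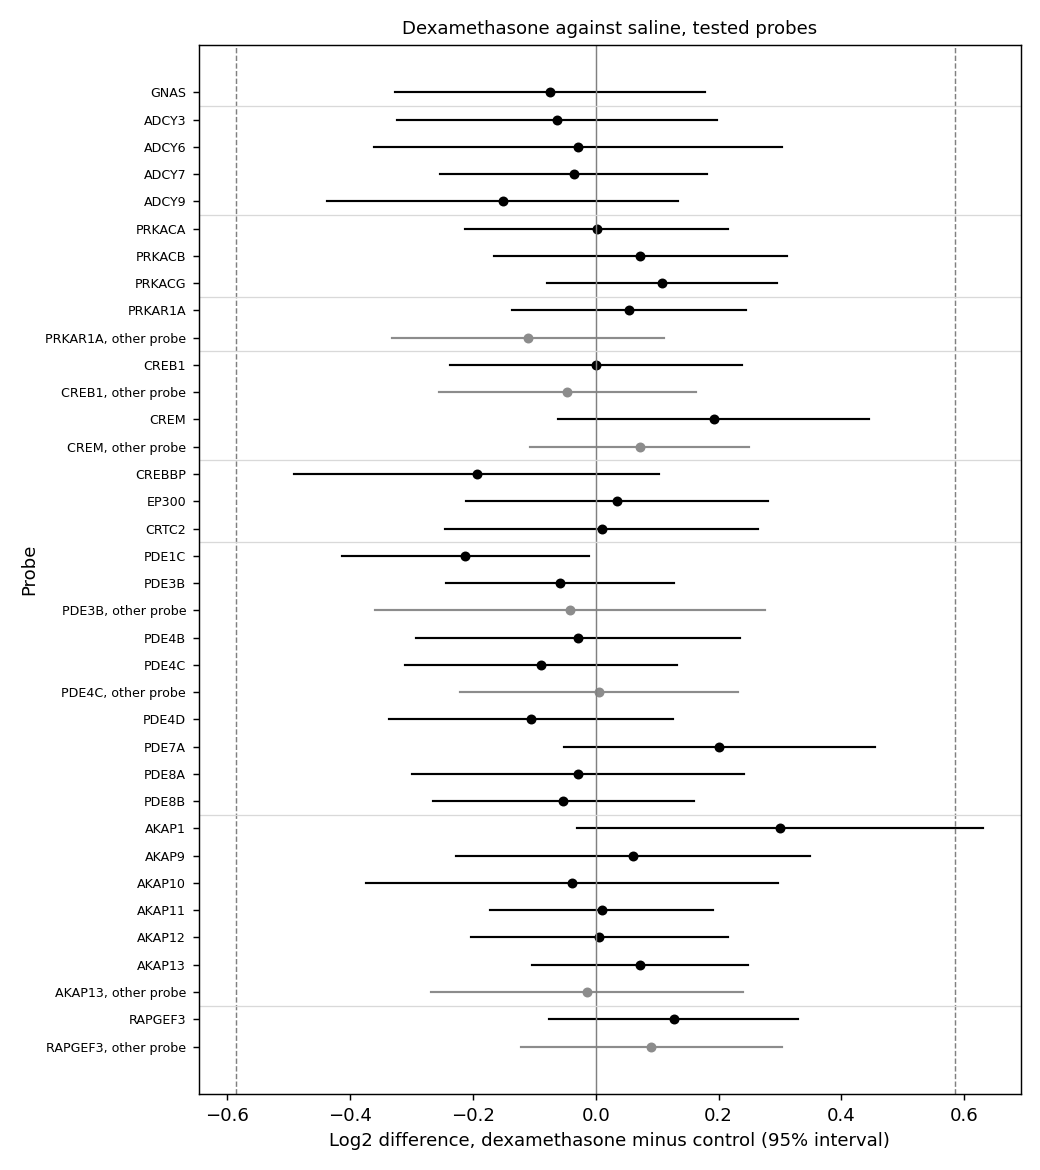
Log2 difference between dexamethasone and control stallions (x axis, points) with limma's 95% intervals (lines) for the 36 tested probes, in order of role. Black marks each gene's brightest tested probe, grey its other tested probes, and the dashed lines 1.5-fold. Apart from AKAP1, whose interval reaches 0.63, the intervals lie within 1.5-fold.

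The log2 differences ran from -0.21 (PDE1C) to 0.30 (AKAP1). For 35 of the 36 probes limma's 95% interval lay inside 1.5-fold in either direction, on the scale of normalised values with an offset of 50 added. That offset compresses differences of dim probes. With plain background subtraction the count was 29 of 36 and the widest limits were -1.99 and 0.90, so the narrow intervals of dim probes need not bound the change of the transcript. The spread between stallions was like that of other probes, with a median within-group SD of 0.14 for member probes and 0.12 for all tested probes.

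**Figure D3:**
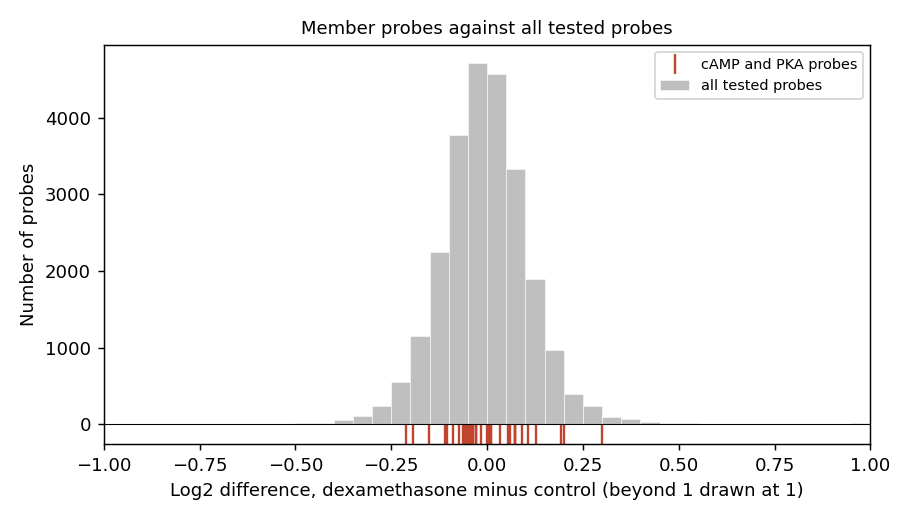
Number of tested probes (y axis) by log2 difference between dexamethasone and control stallions (x axis) in grey, with the 36 probes of cAMP and PKA genes as red ticks under the bars. The ticks lie between -0.21 and 0.30, within the bulk of the bars, and 1 of the 36 lies outside the central 95% of all tested probes (-0.23 to 0.23).

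At the top of the pathway, GNAS encodes the alpha subunit of the stimulatory G protein. Its bright probe read 13.16, 13.48 and 13.38 in dexamethasone replicates 1 to 3 and 13.32, 13.33 and 13.59 in control replicates 1 to 3. The groups overlapped, and the difference was -0.07 ± 0.11 on the log2 scale (SE). Among membrane cyclases outside the set, ADCY4 and ADCY8 lay higher in dexamethasone stallions (0.17 and 0.06) and ADCY1, ADCY2 and ADCY5 lower (-0.11, -0.10 and -0.03). The 4 tested membrane cyclases of the set lay lower in dexamethasone stallions, with differences from -0.15 to -0.03 and none past the test. That split rested on single stallions, with 2 higher and 2 lower without dexamethasone replicate 1, and 1 higher and 3 lower without dexamethasone replicate 2 or 3. ADCY9, a widely expressed cyclase, stood at 7.73, 7.94 and 7.91 with dexamethasone and at 8.20, 8.11 and 7.73 in controls. Control replicate 3 shared the lowest value with dexamethasone replicate 1, and the difference was -0.15 ± 0.13 (SE). The arrays fall into 2 runs of slide numbers, the first with 2 stallions of each group and the second with 1 of each. ADCY9 differed by -0.32 in the first and by 0.19 in the second. Leaving out control replicate 1 gave -0.06, and leaving out control replicate 3 gave -0.29. ADCY3, ADCY6 and ADCY7 differed by -0.06 ± 0.12, -0.03 ± 0.15 and -0.04 ± 0.10 (log2, SE), ADCY6 with 2 control values because the spot of control replicate 2 was left out for its quality mark.

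PKA catalytic subunits carry the kinase activity. PRKACA, the main form in most tissues and the source of a sperm-specific splice form, read 6.89, 6.72 and 6.73 with dexamethasone and 6.84, 6.87 and 6.64 in controls. Both groups had a mean of 6.78 and the difference was 0.00 ± 0.10 (log2, SE), with a 95% interval from -0.21 to 0.22. The probe is listed under 2 PRKACA transcripts, so splice forms were not told apart. PRKACB, the second broadly expressed form, read 7.47, 7.60 and 7.50 against 7.57, 7.23 and 7.55, so that control replicate 2 was the lowest of the 6 and the difference was 0.07 ± 0.11 (SE). PRKACG read 8.56, 8.64 and 8.56 against 8.55, 8.39 and 8.50. The groups just failed to overlap, the nearest stallions lying 0.01 apart, and the difference was 0.11 ± 0.08 (SE), or -0.01 with median scaling.

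Regulatory subunits bind cAMP and hold the catalytic subunits inactive. PRKAR1A, the type I alpha subunit, was the only one tested. Its brighter probe read 9.06, 9.23 and 9.20 with dexamethasone and 9.11, 9.15 and 9.06 in controls. These groups overlapped and differed by 0.05 ± 0.09 (log2, SE). The second PRKAR1A probe lay the other way, at 7.18, 7.48 and 7.36 against 7.47, 7.37 and 7.51, a difference of -0.11 ± 0.10 (SE). Neither probe passed the test.

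**Figure D4:**
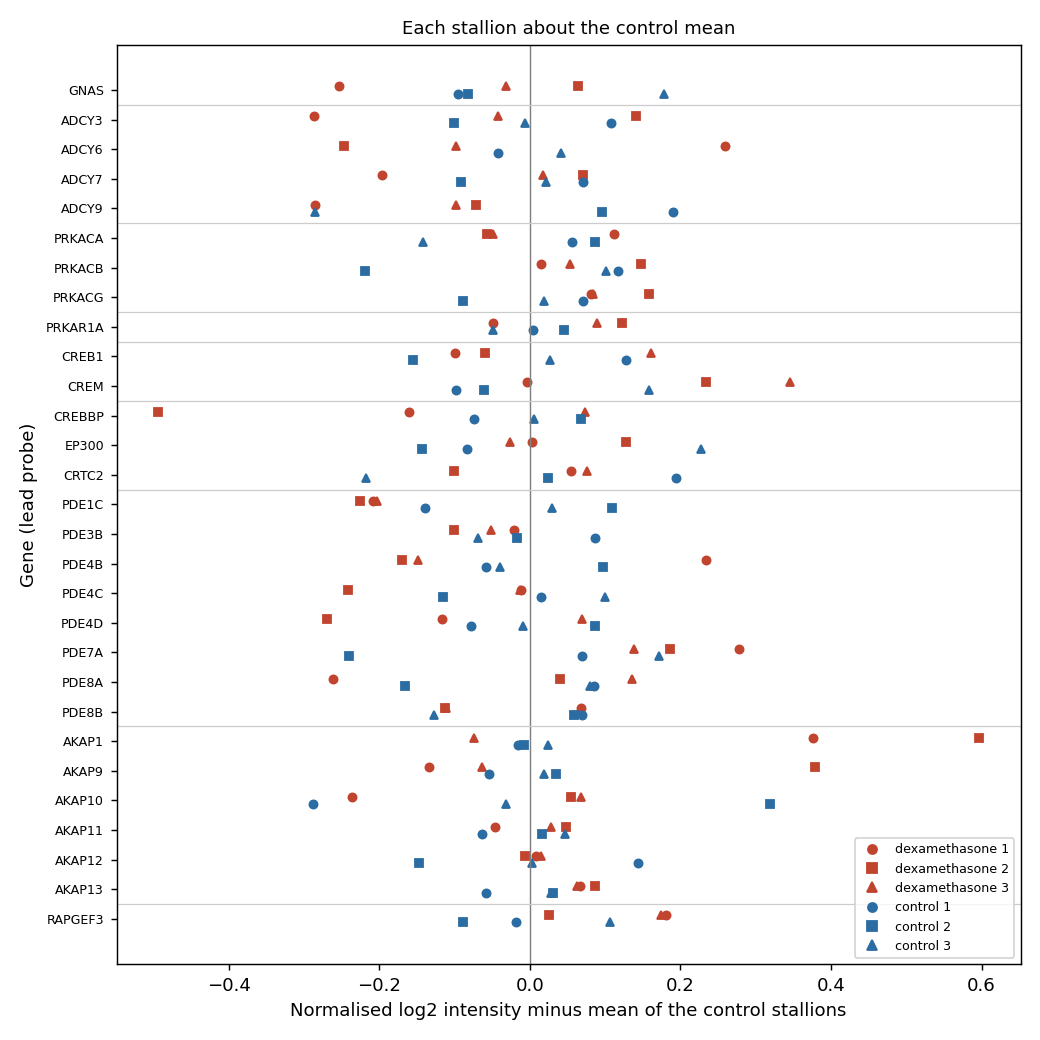
Normalised log2 intensity of each stallion minus the mean of the control stallions (x axis) for the brightest tested probe of the 29 tested genes (rows, in order of role). Red symbols are dexamethasone and blue symbols control stallions, and the shapes are replicates. Red and blue interleave in all rows but PRKACG, PDE1C and AKAP13, and the red points farthest to the right belong to AKAP1 and AKAP9.

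CREB1 and CREM are transcription factors that PKA phosphorylates, and CREM also gives rise to a short repressor form made in response to cAMP. The brightest CREB1 probe read 10.22, 10.26 and 10.48 with dexamethasone and 10.44, 10.16 and 10.34 in controls. Both means were 10.32 and the difference was 0.00 ± 0.11 (log2, SE). A second CREB1 probe differed by -0.05 ± 0.09 (SE), and the other 2 were not above background on any array. The brightest CREM probe read 9.82, 10.06 and 10.17 with dexamethasone and 9.73, 9.77 and 9.99 in controls. Dexamethasone replicates 2 and 3 lay above all controls, while replicate 1 lay below control replicate 3. The difference was 0.19 ± 0.11 (SE) with a 95% interval from -0.06 to 0.45. It was 0.19 within each run of slides, but 0.04 with median scaling and 0.11 with the authors' scaled intensities. Without dexamethasone replicate 1 it was 0.29 and without replicate 3 it was 0.12. The second CREM probe, dimmer, differed by 0.07 ± 0.08 (SE).

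The coactivators CREBBP and EP300 are histone acetyltransferases that phosphorylated CREB recruits, and CRTC2 is a CREB coactivator that PKA signalling lets into the nucleus. CREBBP was close to background, above it in 1 of 3 dexamethasone and 3 of 3 control stallions. It read 6.26, 5.93 and 6.50 with dexamethasone against 6.35, 6.49 and 6.43 in controls. The highest and the lowest values both belonged to dexamethasone stallions, and the difference was -0.19 ± 0.13 (log2, SE), or -0.78 with background subtraction. With 2 of the 3 dexamethasone values not above background, the size of this difference is not well measured. Without dexamethasone replicate 2 it was -0.05, and without replicate 3 it was -0.33. Replicate 3 was the only dexamethasone stallion with CREBBP above background. Without it CREBBP was tested only through the controls and had to differ, so that value supports no difference. EP300 and CRTC2 differed by 0.03 ± 0.11 and 0.01 ± 0.11 (SE).

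Phosphodiesterases end the cAMP signal. Of the 8 tested, 7 lay lower and 1 higher, and none passed the test. Of all tested probes 47.5% lay higher, and the 6 tested phosphodiesterase genes listed outside the set split 3 higher and 3 lower. The split was 6 lower and 2 higher without any 1 of the dexamethasone stallions and within the first slide run, and 4 and 4 within the second. PDE1C is a calmodulin-dependent enzyme. Its brightest probe read 6.31, 6.29 and 6.31 with dexamethasone and 6.38, 6.62 and 6.54 in controls, with groups that did not overlap. It was above background in 0 of 3 dexamethasone and 3 of 3 control stallions. The dexamethasone arrays give only an upper bound, taken per array as the dimmest probe above background or the PDE1C value if greater. The control mean lay 1.15-fold above that bound (6.51 against 6.31). This ratio takes no account of the spread between stallions, so it sets no smallest size for the difference. The measured means were 6.30 ± 0.01 and 6.51 ± 0.13 (log2, SD, n = 3 each), a difference of -0.21 ± 0.09 (SE, limma adjusted p = 0.999). Because it entered the test only through the controls, its unadjusted p of 0.0407 in limma supports no difference. That p was 0.0518 with the slide run as a block, 0.0527 with median scaling and 0.0817 with trend and robust options. Without each dexamethasone stallion it was 0.0686 to 0.0741. It was lower with an offset of 16 (0.0182), background subtraction (0.0109) and the authors' scaled intensities (0.00988), where PDE1C again entered only through the controls. With cyclic loess, no background filter, marked spots kept or array weights it was 0.0418 to 0.048. PDE1C was not tested without any 1 of the controls, because it was then above background on too few arrays, and the difference was -0.56 with background subtraction. The other 3 PDE1C probes were above background on 0 or 1 arrays.

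PDE7A, a cAMP-specific enzyme, was the phosphodiesterase that lay higher. It read 8.49, 8.40 and 8.35 with dexamethasone and 8.28, 7.97 and 8.38 in controls. Control replicate 2 was the lowest and control replicate 3 lay among the dexamethasone stallions, and the difference was 0.20 ± 0.11 (log2, SE). It was 0.32 in the first slide run, -0.03 in the second and 0.08 without control replicate 2. PDE4D and PDE4C belong to the family that PKA itself can activate. PDE4D read 10.03, 9.88 and 10.22 with dexamethasone and 10.07, 10.23 and 10.14 in controls. These groups overlapped, with a difference of -0.11 ± 0.10 (SE), or -0.26 with median scaling. It was -0.02 without dexamethasone replicate 2, -0.19 without replicate 3 and 0.08 in the second slide run. PDE4C read 8.66, 8.43 and 8.66 against 8.69, 8.56 and 8.77, a difference of -0.09 ± 0.10 (SE), and its second probe differed by 0.01 ± 0.10 (SE).

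PDE3B, an enzyme that cyclic GMP inhibits, had 2 bright probes. The brighter read 10.56, 10.48 and 10.53 with dexamethasone and 10.67, 10.56 and 10.51 in controls. The groups overlapped and the difference was -0.06 ± 0.08 (log2, SE), while the other bright probe differed by -0.04 ± 0.14 (SE). PDE8A and PDE8B, cAMP-specific enzymes known to restrain steroid synthesis in Leydig cells, differed by -0.03 ± 0.12 and -0.05 ± 0.09 (SE), and PDE4B by -0.03 ± 0.12.

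A-kinase anchoring proteins place PKA at membranes, organelles and the cytoskeleton. Of the 6 tested, 5 lay higher and 1 lower, but 2 higher and 4 lower with median scaling or the authors' scaled intensities and 3 and 3 without dexamethasone replicate 2, and none passed the test. AKAP1, which anchors PKA at the outer mitochondrial membrane, had the largest difference of the members. It read 7.90, 8.12 and 7.45 with dexamethasone and 7.51, 7.52 and 7.55 in controls. Dexamethasone replicates 1 and 2 lay above all controls and replicate 3 below them, while the controls lay within 0.04 of each other. The difference was 0.30 ± 0.15 (log2, SE), with a 95% interval from -0.03 to 0.63. It was 0.50 in the first slide run and -0.10 in the second, 0.15 without dexamethasone replicate 2 and 0.49 without replicate 3. Blocking on slide run, its unadjusted p in limma was 0.0493 and its adjusted p was 0.998.

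AKAP9, a large scaffold of the centrosome and Golgi apparatus, read 8.67, 9.18 and 8.74 with dexamethasone and 8.75, 8.84 and 8.82 in controls. Dexamethasone replicate 2 stood above the other 5 stallions, which lay close together, and the difference was 0.06 ± 0.13 (log2, SE), or -0.10 without that stallion. AKAP13, another large anchoring protein, read 6.90, 6.92 and 6.89 against 6.77, 6.86 and 6.86. Its groups did not overlap, with a difference of 0.07 ± 0.08 (SE), but in the second AKAP13 probe they did overlap, at -0.01 ± 0.11 (SE). AKAP10 spanned 8.16 to 8.77 among the controls, the widest control range of the 29 genes, and differed by -0.04 ± 0.15 (SE). AKAP11 varied least of all member probes, over a range of 0.11 across the 6 stallions, and differed by 0.01 ± 0.08 (SE). AKAP12 differed by 0.01 ± 0.09 (SE).

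RAPGEF3 encodes the EPAC exchange factor that activates Rap when cAMP binds. Its brighter probe read 8.92, 8.76 and 8.91 with dexamethasone and 8.72, 8.65 and 8.84 in controls. Dexamethasone replicates 1 and 3 lay above all controls and replicate 2 between them, with a difference of 0.13 ± 0.09 (log2, SE), or -0.01 with median scaling. The second probe read 8.09, 7.94 and 8.06 against 7.80, 8.04 and 7.99, a difference of 0.09 ± 0.09 (SE). Neither passed the test.

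**Figure D5:**
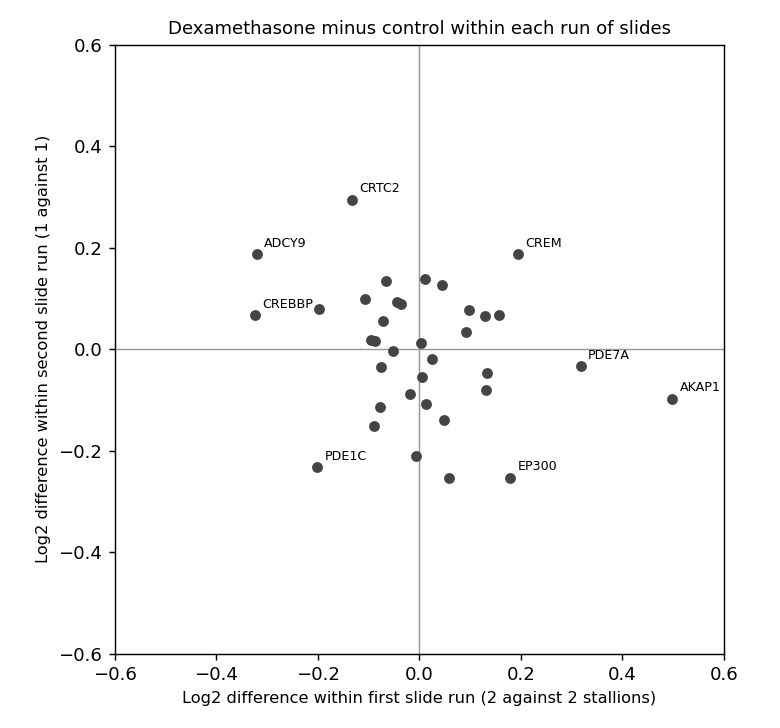
Log2 difference between dexamethasone and control stallions within the first run of slide numbers (x axis, 2 stallions against 2) and within the second (y axis, 1 against 1) for the 36 tested member probes (points). The points lie on both sides of 0 on each axis, and AKAP1 and PDE7A, farthest to the right, lie just under 0 on the y axis.

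The direction of a member's difference often did not carry over between the 2 runs of slide numbers, which share no stallions. The sign was the same in both runs for 15 of the 36 member probes (41.7%), against 47.4% of the tested probes with values in both. CREM, PRKACG, RAPGEF3, AKAP12 and the brightest AKAP13 probe lay higher in both runs. GNAS, ADCY3, ADCY7, the brightest PDE4C probe and the dimmer tested PDE3B probe lay lower in both. Both PRKAR1A probes kept their sign too, in opposite directions. AKAP1, PDE7A, ADCY9 and CREBBP were among those that did not keep it. PDE1C also kept its sign, but it entered the test only through the control arrays. The second run holds 1 stallion of each group, so its differences have no replicates.

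Other genes of the pathway, from 8 lists of receptors, further G proteins and cyclases, phosphodiesterases, anchoring proteins, PKA inhibitors and CREB regulators, EPAC effectors and target genes, did not pass the adjusted test either. Of 95 such genes outside the 39, 60 were tested, 31 lay higher and 29 lower with a median difference of 0.00. RAPGEF2, an exchange factor for Rap, was the only 1 of the 60 with an unadjusted p under 0.05 in limma, against 3.29% of all tested probes. It read 8.83, 8.59 and 8.61 with dexamethasone and 8.50, 8.47 and 8.02 in controls, groups that did not overlap, with a difference of 0.35 ± 0.13 (log2, SE, limma adjusted p = 0.999). Groups also did not overlap for GNAI2 and PDE6D, which lay higher, and for ATF2, CREB5, FOSB and NR4A1, which lay lower. Over all tested probes, 4.2% were higher and 5.07% lower without overlap.

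Upstream, the luteinizing hormone receptor gene LHCGR read 12.21, 12.18 and 12.22 with dexamethasone and 12.33, 12.17 and 12.36 in controls, and the follicle-stimulating hormone receptor gene FSHR differed by 0.07 ± 0.12 (log2, SE). Of the 8 tested receptors that act through cAMP, 3 lay higher and 5 lower. Among 16 tested genes that cAMP is known to induce, 10 lay higher and 6 lower, with a median of 0.01 and differences from -0.21 to 0.19. That list also counts the members CREM, PDE4B and PDE4D, and its highest value is that of CREM. STAR, the cholesterol carrier that cAMP induces in Leydig cells, differed by 0.01 ± 0.11 (SE). Of 10 listed spermatid genes that CREM is known to control, 5 were tested, 2 lay higher and 3 lower with a median of -0.08, and TNP1, PRM2, ACE and PGK2 were above background on 0 arrays, the last 3 being named after their values were seen. The anchoring proteins of the sperm fibrous sheath, AKAP3 and AKAP4, differed by -0.02 ± 0.22 and 0.14 ± 0.13 (SE). AKAP3 ranged from 8.07 to 9.07 among the dexamethasone stallions, against 8.50 to 8.86 among controls. FHL5, a testis coactivator of CREM, and PKIA, a PKA inhibitor, were above background on 0 arrays and were not tested.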

How the data were processed

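Arrays were read as Alexa-647, per the labels' protocols, which give Tripure extraction and manual CodeLink cRNA labelling. The scanner software is not given in the sources used here, nor is the meaning of its quality marks. The deposited files hold spot mean and median background intensity, a scaled intensity and, per the file headers, a signal strength score, which from the values is spot mean over noise. The deposited scaled intensity is, from the values, background-subtracted intensity over 1 constant per array. Spots marked C, I or P were left out.

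Spot mean and background were corrected with normexp (offset 50), quantile normalised and taken to log2 in limma 3.58.1 (R 4.3.3). limma's lmFit and eBayes without covariates gave two-sided tests, adjusted by the Benjamini-Hochberg method across the 24590 probes tested. The fit was also run on data simulated under limma's own model, which is no check of that model on these arrays. Figures used matplotlib 3.10.9 in Python 3.11.15. Of the probes printed once, 23472 have 1 symbol in the platform annotation, 905 several and 29046 are not listed. Symbols were matched to a RefSeq table of horse genes for names only. A gene's lead probe is its brightest tested one. Values in every stallion are given for the 12 members with the smallest p and for 12 fixed members known in testis, where tested. The members and lists were chosen with earlier results of these data known. Replicate numbers follow the order of samples and pair no stallions. Alternatives were another offset, background subtraction, median scaling, cyclic loess, the authors' scaled intensities, other filters, marked spots kept, the slide run as a block, other eBayes settings, array weights, the mean of a gene's probes, and leaving out each stallion.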

Additional observations from a re-analysis of the deposited data

How the results depend on the processing

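No paired analysis was possible because the replicate numbers only follow the order of the samples. No member probe passed limma's adjusted p in any of the settings fitted, where the smallest adjusted p was 0.659 (median scaling). Over the whole array 1 probe passed adjusted p. None did after background subtraction, under the filter requiring all 6 arrays or under eBayes with trend and robust options (0 each), and leaving out each stallion gave 0 to 1 (0 without control replicate 1 or 3). Member probes past unadjusted p numbered 1, that of PDE1C. In some settings the count stayed at 1 with another probe in place of PDE1C. It was PDE4D with median scaling, AKAP1 with the slide run as a block and CREM without dexamethasone replicate 1. That count was 0 under the filter requiring all 6 arrays, which does not test PDE1C, and 0 under eBayes with trend and robust options. Leaving out each stallion gave 0 to 2, with 0 without control replicate 1 or 2 or dexamethasone replicate 2, and 2 without control replicate 3 or dexamethasone replicate 3. Without control replicate 3 the probes were those of ADCY9 and PDE7A, and without dexamethasone replicate 3 those of AKAP1 and CREBBP. In the latter setting CREBBP was tested only through the controls, so its place in the count supports no difference. Member probes whose groups do not overlap numbered 3, and 3 to 8 without each stallion, where fewer values overlap less (8 without dexamethasone replicate 1 or control replicate 3, 7 without dexamethasone replicate 2 or 3). The median difference of the genes, 0.00, was -0.0866 with median scaling and -0.0806 with the authors' scaled intensities, and -0.0254 to 0.0441 without each stallion (highest without dexamethasone replicate 1). The cause of the other changes was not tested. Among 550 alternative values of single genes, 520 moved by less than the SD between stallions and 70 had the opposite sign. CREM, PDE4C and AKAP13 kept their sign in all of theirs. PDE1C did too, but it entered the test only through the control arrays, and it was not tested without any 1 of the controls. Its kept sign is therefore no support for a difference. The number of arrays and the closeness of many probes to background limit the precision.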

Other observations

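Where a member probe with 6 usable spots was above background on unequal numbers of arrays in the 2 groups, it was on more control than dexamethasone arrays in all 7 cases (2 probes of PDE1C, 2 of PDE4D, and 1 each of CREBBP, AKAP12 and AKAP13). Over all probes printed once with 6 usable spots, 4269 were above background on more control arrays and 2434 on more dexamethasone arrays (63.7% of these on more control arrays). Among those above background on all 3 arrays of a group and on 0 of the other, 84 were on the control arrays and 15 on the dexamethasone arrays, PDE1C being the only member. The number of probes above background was 25537, 24635 and 23809 in control replicates 1 to 3 and 24755, 22690 and 23583 in dexamethasone replicates 1 to 3, so the groups overlapped in that number. The part of this in the PDE1C difference was not tested.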
